A study of Homo sapiens with 31 samples.

Results

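CircRNAs of 58 genes of retinal development and inherited eye disease were examined. A circRNA belonged to the set when the transcript it is named after mapped to one of these genes in GENCODE on hg19. This gave 251 of 55371 circRNAs, from 37 of the 58 genes, with 4766 of the back-splice reads counted, or 0.463%. The other 21 genes had no circRNA under this rule and are not described by values here: PAX6, OTX2, RAX, SIX3, SIX6, MITF, PROX1, ONECUT2, MEIS2, TCF4, NFIA, FOXP2, JAG1, GLI2, PTCH1, PROM1, RP1, RPGR, CLN3, IMPG1 and COL2A1.

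H9 human embryonic stem cells, an established line, were differentiated towards retina in culture, and total RNA depleted of ribosomal RNA was sequenced from 15 libraries. Triplicate cultures were taken at day 0, and at day 45 and day 90 both untreated and with IGF-1 (5 ng/ml up to day 37 and 10 ng/ml after it). All groups derive from one cell line, each library holds the mixed cells of a culture, and day 0 has no IGF-1 group. In such bulk samples, fewer cells of a type and less RNA per cell cannot be told apart.

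CircRNAs form when a splice donor is joined back to an upstream acceptor, so that the exons between them close into a ring without free ends. Reads across this back-splice junction are used to call them, and most come from exons of protein coding genes. The paper states that rare trans-splicing can also give rearranged junctions. Rings described below are called from junction reads alone, and the circularity of each was not tested here. Retinal specification relies on eye field transcription factors and on BMP, Wnt, Hedgehog, Notch and Hippo signalling, while mutations of many photoreceptor and cilium genes cause retinal dystrophy. A circRNA level is not a measure of the level of the host gene's mRNA or protein.

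The back-splice junctions of 6 circRNAs that carry most of the results are shown as GRCh37 sequence (the coordinates of hg19) on the transcribed strand, each with 30 bases of the donor exon followed by 30 bases of the acceptor exon. All lie within coding exons. Capitals mark the 5 bases on each side of the junction, an order of exons that linear splicing of the gene does not produce.
BMPR2 exons 2 to 3, chr2:203329532-203332412, plus strand: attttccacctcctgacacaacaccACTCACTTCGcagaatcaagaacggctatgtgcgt
LRP6 exon 2, chr12:12397196-12397589, minus strand: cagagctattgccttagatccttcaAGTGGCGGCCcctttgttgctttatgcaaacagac
BMPR1B exons 2 to 8, chr4:96025559-96052663, plus strand: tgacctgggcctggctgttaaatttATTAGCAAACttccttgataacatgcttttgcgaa
GLI3 exons 5 to 10, chr7:42063067-42088295, minus strand: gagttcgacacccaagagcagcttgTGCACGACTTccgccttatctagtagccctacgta
TULP1 exons 11 to 12, chr6:35471336-35471625, minus strand: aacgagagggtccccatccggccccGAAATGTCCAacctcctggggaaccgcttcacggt
VCAN exon 8, chr5:82832826-82838087, plus strand: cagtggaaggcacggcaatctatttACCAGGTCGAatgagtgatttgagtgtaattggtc

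Exon numbers are those of the transcript each circRNA is named after. Of the 251 member circRNAs, 250 had AG before the acceptor and GT after the donor in the genome.

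Libraries held 14992 to 108946 back-splice reads. Values are given as raw reads or as RPM, back-splice reads per 1000000 sequenced reads. Over all circRNAs the level rose from 118 ± 10.96 RPM at day 0 to 747 ± 206 RPM at day 45 (SD, n = 3), and day 90 replicate 1 stood apart from the other day 90 libraries with 309 RPM. RNA integrity numbers were 9.8 to 10 at day 0, 7.6 to 9.1 at day 45 and 7.1 to 8.9 at day 90, and their part in the differences between days was not tested.

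Summed over all members, 36, 38 and 83 reads were found in the day 0 libraries and 454, 414 and 467 in the untreated day 45 libraries. This is 0.383 ± 0.182 RPM at day 0 and 3.43 ± 0.591 RPM at day 45 (SD, n = 3). Members took 0.318% ± 0.126 of all back-splice reads at day 0 and 0.467% ± 0.0535 at day 45, and the highest day 0 library, at 0.463%, lay within the day 45 range of 0.417% to 0.523%. At day 90 the sum was 2.17 ± 0.823 RPM untreated and 2.82 ± 0.605 RPM with IGF-1. Untreated day 90 replicate 1 was at 1.22 RPM, and without it the untreated mean was 2.64 RPM.

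**Figure D1:**
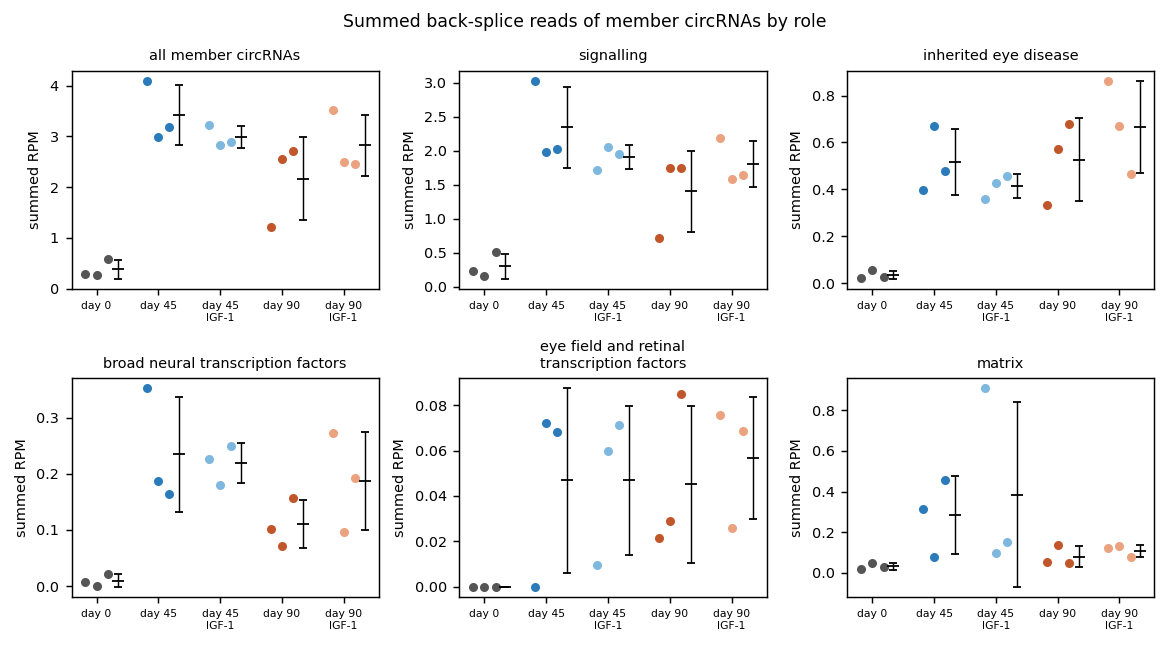
Summed back-splice reads of member circRNAs per 1000000 sequenced reads (RPM, y axis) in each of 15 libraries (points), by group (x axis) and by role of the gene, with the mean and SD of each group of 3 beside the points. For all members together, the day 0 libraries reach 0.592 RPM and every later library lies at 1.22 RPM or more.

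Reads were spread unevenly over the genes. BMPR2 had 1433 reads, LRP6 524, BMPR1B 440, VCAN 336, GLI3 266, LCA5 258, BMPR1A 205, TULP1 142, TEAD1 139, SPATA7 129 and FOXP1 128. Between 77 and 11 reads came from SOX6 (77), EYS (73), FZD3 (66), CERKL (61), ZEB1 (61), MEIS1 (57), LRP2 (53), MERTK (51), CHM (42), IMPG2 (41), CRB1 (33), OPA1 (32), RORB (22), YAP1 (18), ZEB2 (17), PRPF3 (16) and TCF12 (11). The remaining 9 genes had PRPF8 9, ABCA4 7, LHX2 4, NFIB 4, NOTCH2 4, SOX5 4, FAM161A 1, MAK 1 and RORA 1. The most abundant circRNA of a gene is called its lead here, and the leads of the 15 genes with most reads held 62.6% of member reads, the BMPR2 lead alone 24.7%.

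The quasi-likelihood test of edgeR was applied to circRNAs with 10 or more reads in all, a filter that 62 of the 251 members passed; the other 189 held 404 reads. Of these 62, 26 were higher at day 45 than at day 0 with an adjusted p under 0.05 and none was lower. Among all 12498 circRNAs tested, 40.9% were higher, so the members' 41.9% was near the background. The median log2 change was 3.20 for members and 2.87 for all circRNAs. Since a circRNA absent at day 0 passes the filter only through later libraries, as 35 of the 62 did, the count does not stand for all members. At day 90, 15 of 62 were higher than at day 0 and none was lower, against 21.7% higher over all circRNAs.

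Scaled to back-splice totals with TMM factors, which reduced the general rise without removing it, 7 of 62 members were higher at day 45 and none was lower, against 6.27% over all circRNAs. They came from BMPR1B, BMPR2, GLI3, LCA5, TULP1 and VCAN. On this scale the median log2 change was 2.81 for members and 1.60 for all circRNAs. The member median includes 35 of 62 circRNAs without a day 0 read, whose log2 change has no measured base. For the BMPR1B lead, which is 1 of these, scaling moved it from 7.25 to 6.81, and for the BMPR2 lead, with day 0 reads, from 3.29 to 1.46. The share of such circRNAs among all tested is not given here, so the 2 medians do not show a rise beyond the general one.

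Among signalling genes, the 3 BMP receptor genes were the main source of reads. BMPR2 encodes the type II receptor, and BMPR1A and BMPR1B encode type I receptors, of the BMP pathway that patterns the dorsal eye. The BMPR2 lead, a ring of exons 2 and 3 with 342 bases, had 9, 7 and 22 reads at day 0, 169, 71 and 107 at day 45, 80, 94 and 104 at day 45 with IGF-1, 47, 71 and 121 at day 90, and 95, 90 and 89 at day 90 with IGF-1. No later library came within the day 0 range. The level was 0.0927 RPM at day 0 and 0.923 ± 0.533 RPM at day 45, a log2 change of 3.29 ± 0.46 (SE, adjusted p = 7.70e-11, edgeR). With TMM factors the change was 1.46 (adjusted p = 0.000914) and with DESeq2 size factors 1.74, and over 27 alternatives the adjusted p ran from 8.95e-13 to 0.000914.

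The BMPR1B lead, exons 2 to 8, had no read at day 0, 14, 19 and 22 reads at day 45, 11, 27 and 24 at day 45 with IGF-1, 0, 17 and 19 at day 90, and 24, 28 and 9 at day 90 with IGF-1. The 0 among the later libraries was in day 90 replicate 1, the library of lowest later circRNA level. Set against 3 reads over the day 0 group, the count that a 0 allows, the observed day 45 level was 18.9 times this limit. Counting error of the day 45 reads is not covered by this ratio, nor by the ratios to the day 0 limit below. The test gave an adjusted p of 1.24e-09 (edgeR). A second BMPR1B circRNA, exons 2 to 3 of another transcript, had 186 reads and likewise none at day 0.

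The reads of BMPR1A were divided over 18 circRNAs, 8 of them with 10 or more reads. Its lead, exons 2 to 3, held 30.2% of its reads, against 48.6% for the BMPR1B lead and 82.1% for the BMPR2 lead; GLI3, FOXP1 and SOX6 also had leads with less than 33% of their reads (32.7%, 31.3% and 20.8%). The BMPR1A lead had 3, 0 and 5 reads at day 0, 8, 8 and 3 at day 45, 3, 2 and 3 at day 45 with IGF-1, 1, 5 and 6 at day 90, and 5, 3 and 7 at day 90 with IGF-1. These ranges overlapped, and the log2 change to day 45 of 1.28 ± 0.80 (SE) had an adjusted p of 0.165 (edgeR). With TMM factors the change was -0.45. As a sum per gene, BMPR1A had 6, 4 and 12 reads at day 0 and 29, 35 and 15 at day 45. This sum passed the test, with a log2 change of 1.90 ± 0.53 (SE, adjusted p = 0.000994, edgeR), and with TMM factors its change was -0.25.

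LRP6, a Wnt co-receptor, gave mainly a ring of its exon 2 alone, 394 bases long. It had 9, 8 and 15 reads at day 0, 45, 35 and 38 at day 45, 24, 27 and 39 at day 45 with IGF-1, 15, 34 and 31 at day 90, and 46, 32 and 36 at day 90 with IGF-1. The highest day 0 library met the lowest day 90 library at 15 reads. The log2 change to day 45 was 1.94 ± 0.48 (SE, adjusted p = 0.000500, edgeR), below the median of all circRNAs, and with TMM factors it was 0.17 with an adjusted p of 0.809, the highest of 27 alternatives, whose lowest was 6.00e-05.

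GLI3, a transcription factor of the Hedgehog pathway, had 5 circRNAs with 10 or more reads. Its lead, exons 5 to 10, had no read at day 0, 9, 5 and 10 at day 45, 15, 5 and 6 at day 45 with IGF-1, 3, 9 and 4 at day 90, and 6, 8 and 7 at day 90 with IGF-1. All 12 later libraries held reads of it. The observed day 45 level was 8.23 times the day 0 limit (adjusted p = 3.46e-05, edgeR).

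TEAD1, a DNA-binding partner of the Hippo effector YAP1, gave a ring of its exon 3. It had 0, 3 and 11 reads at day 0, 12, 14 and 9 at day 45, 0, 23 and 20 at day 45 with IGF-1, 0, 8 and 13 at day 90, and 12, 9 and 0 at day 90 with IGF-1. Day 0 and day 45 overlapped, and the adjusted p was 0.0647 (edgeR). Over 27 alternatives it ran from 0.00554, without day 0 replicate 3, to 0.936. The TEAD1 sum per gene passed, with a log2 change of 1.42 ± 0.63 (SE, adjusted p = 0.0410, edgeR), and with TMM factors its change was -0.71. FZD3, a Wnt receptor, had no read of its lead at day 0, 4, 3 and 3 at day 45, 0, 5 and 0 at day 45 with IGF-1, 4, 3 and 1 at day 90, and 1, 1 and 0 at day 90 with IGF-1.

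Of the 32 signalling circRNAs tested, 13 were higher at day 45 than at day 0 and 19 did not pass the test, a share of 40.6% against 40.9% of all circRNAs. As sums per gene, 8 of the 9 signalling genes tested were higher (61.9% of all genes were), all except YAP1 (adjusted p = 0.0801, edgeR). YAP1 had 1, 3 and 0 reads at day 45 and none at day 0, so its fitted log2 change of 3.60 ± 1.87 (SE) has no measured base.

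Among genes of inherited eye disease, LCA5 and TULP1 had most reads under the rule of the set. LCA5 encodes lebercilin, a ciliary protein, and both are disease genes of early retinal dystrophy. CHM had 42 reads in the set and 137 outside it, as given below. The LCA5 lead, exons 3 to 4, had no read at day 0, 10, 14 and 21 at day 45, 12, 17 and 22 at day 45 with IGF-1, 7, 5 and 16 at day 90, and 19, 19 and 7 at day 90 with IGF-1. All 12 later libraries held it, at day 45 at an observed level 15.4 times the day 0 limit (adjusted p = 2.84e-08, edgeR).

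TULP1, a photoreceptor protein of the tubby family, gave 2 circRNAs, and 99.3% of its reads were from exons 11 to 12. This circRNA had no read at day 0, 3, 16 and 8 at day 45, 0, 12 and 2 at day 45 with IGF-1, 10, 12 and 23 at day 90, and 22, 19 and 14 at day 90 with IGF-1. The observed day 45 level was 9.26 times the day 0 limit (adjusted p = 7.42e-06, edgeR). The day 90 values were in the upper part of the range, but the summed TULP1 change from day 45, 0.62 ± 0.57 on the log2 scale (SE), did not pass the test (adjusted p = 0.599, edgeR).

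EYS, a secreted protein of the photoreceptor, gave a lead of exons 3 to 5 with no read at day 0, 1, 2 and 3 at day 45, 0, 0 and 3 at day 45 with IGF-1, 4, 22 and 11 at day 90, and 0, 5 and 4 at day 90 with IGF-1. The 3 untreated day 90 libraries were above the 3 untreated day 45 libraries. Against day 0, the day 45 call of this lead had an adjusted p of 0.0320 (edgeR), with 0.0246 to 0.355 over 26 alternatives. It was lost in 4 of the fits that each left out a library. For all EYS circRNAs together the log2 change from day 45 to day 90 was 2.82 ± 0.79 (SE), with an adjusted p of 0.0665 (edgeR), and 0.00742 to 0.522 over 27 alternatives.

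SPATA7, a protein of the photoreceptor connecting cilium, gave a lead of exons 5 to 12 with 2, 4 and 0 reads at day 0, 8, 7 and 12 at day 45, 7, 3 and 8 at day 45 with IGF-1, 7, 7 and 8 at day 90, and 12, 10 and 4 at day 90 with IGF-1. Its log2 change to day 45 was 2.14 ± 0.76 (SE, adjusted p = 0.0176, edgeR), and 0.112 was the adjusted p without day 0 replicate 3, in a range of 0.00790 to 0.714 over 27 alternatives. The CERKL lead, exons 6 to 12, had no read at day 0, 0, 10 and 2 at day 45, 0, 0 and 6 at day 45 with IGF-1, 4, 5 and 9 at day 90, and 15, 0 and 9 at day 90 with IGF-1. Its day 45 group included a library at 0, and its adjusted p of 0.00337 (edgeR) was 0.138 without day 45 replicate 2, in a range of 0.00118 to 0.166 over 27 alternatives.

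Of the 16 circRNAs of eye disease genes tested, 8 were higher at day 45 and 8 did not pass the test, against 40.9% higher among all circRNAs. As sums per gene 7 of 11 were higher, a share of 63.6% against 61.9% of all genes, namely CERKL, CHM, EYS, IMPG2, LCA5, SPATA7 and TULP1. The sum over this group was 0.0363 ± 0.0174 RPM at day 0, 0.516 ± 0.141 at day 45 and 0.527 ± 0.177 at day 90 (SD, n = 3).

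Few reads came from eye field and retinal transcription factors. Only MEIS1, RORB and LHX2 of the 12 genes listed had a circRNA, with 83 reads and none at day 0. MEIS1, a homeodomain cofactor, had 0, 7 and 7 reads at day 45 as a sum per gene, 4.80 times the day 0 limit (adjusted p = 0.00110, edgeR). RORB, a nuclear receptor of photoreceptor development, had 0, 3 and 3 reads, 2.06 times the limit (adjusted p = 0.0369, edgeR). Without a day 0 read, the fitted log2 changes of 5.26 ± 1.48 and 4.09 ± 1.78 (SE) have no measured base. Untreated day 45 replicate 1 had no read of this group.

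Among the broadly neural transcription factors, 4 of 5 genes tested were higher at day 45 as sums per gene (61.9% of all genes were), FOXP1, SOX6, ZEB1 and ZEB2. SOX6, ZEB1 and ZEB2 had no day 0 read, so their fitted changes have no measured base. ZEB2 had only 3, 2 and 1 reads at day 45. The FOXP1 lead, exons 3 to 5, had no read at day 0, 3, 5 and 3 at day 45, 4, 8 and 2 at day 45 with IGF-1, 2, 0 and 3 at day 90, and 6, 3 and 1 at day 90 with IGF-1 (adjusted p for day 45 = 0.00639, edgeR, and 0.213 with TMM factors). A readthrough gene in the annotation shares exon ends with FOXP1 circRNAs, so their assignment is uncertain. The SOX6 lead, exons 2 to 3, held 20.8% of SOX6 reads. It had no read at day 0, 0, 3 and 0 at day 45, 2, 0 and 3 at day 45 with IGF-1, 1, 0 and 5 at day 90, and 1, 0 and 1 at day 90 with IGF-1, and did not pass the test at day 45 (adjusted p = 0.139, edgeR).

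VCAN, the matrix proteoglycan versican, was the matrix gene with reads. Its lead, a ring of the 5262-base exon 8, had 0, 1 and 2 reads at day 0, 30, 10 and 48 at day 45, 89, 12 and 16 at day 45 with IGF-1, 6, 16 and 6 at day 90, and 13, 15 and 6 at day 90 with IGF-1. A single library, day 45 IGF-1 replicate 1, held 89 of its 270 reads. The ratio of summed reads per sequenced read at day 45 to day 0 was 30.2, with an exact 95% counting interval of 10.0 to 149 (adjusted p of the change = 7.86e-10, edgeR).

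**Figure D2:**
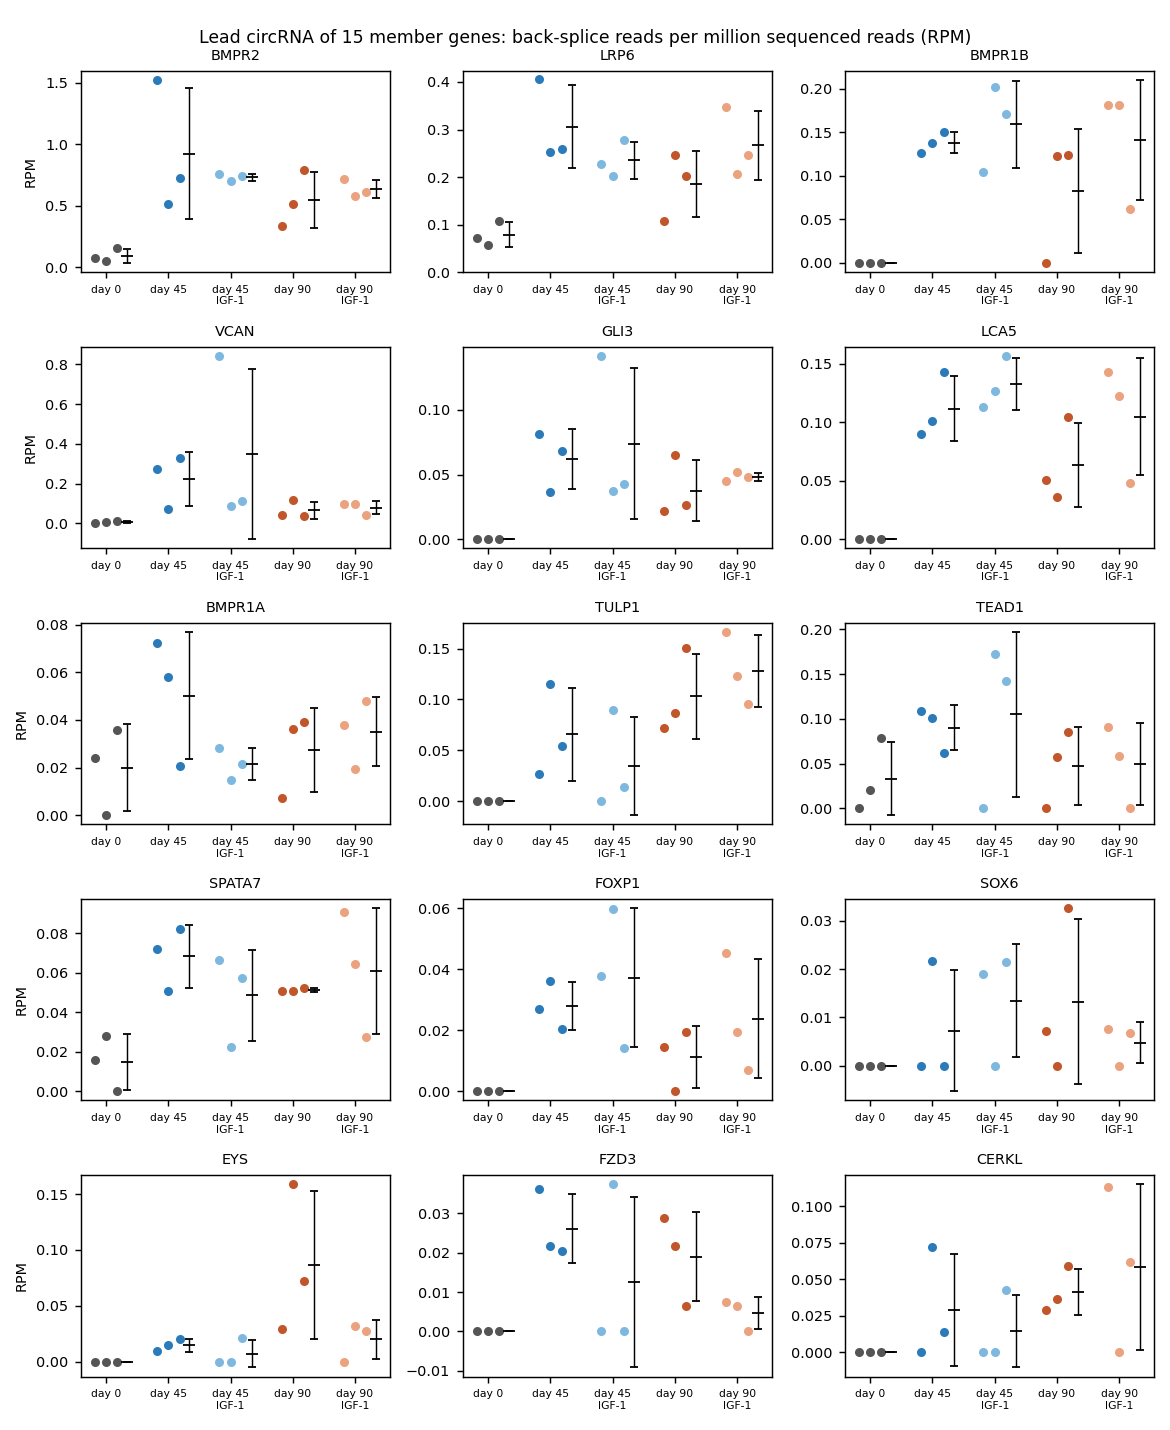
Back-splice reads per 1000000 sequenced reads (RPM, y axis, own scale in each panel) of the lead circRNA of 15 genes in 15 libraries (points), by group (x axis), with the mean and SD of each group of 3. For 9 of the 15 leads all 3 day 0 libraries are at 0, a count without a counterpart over other genes here. The BMPR2 lead is highest at every group, at 0.923 RPM on average at day 45.

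**Figure D3:**
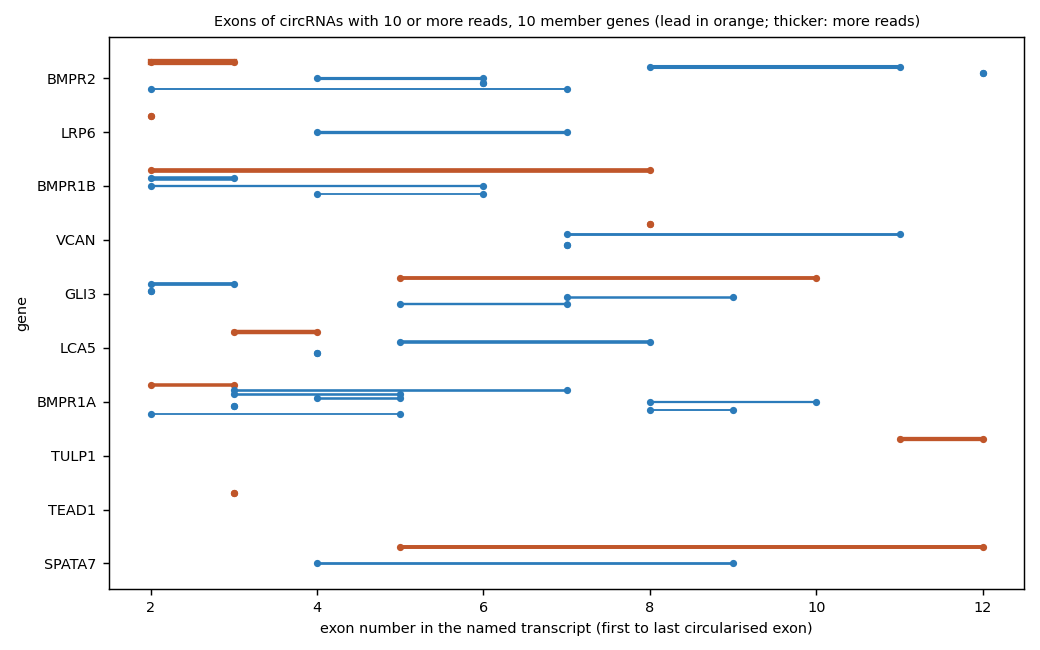
Exons joined in circRNAs with 10 or more reads of the 10 member genes with most reads (y axis), from the first to the last exon by number in the transcript each is named after (x axis), so numbers may differ between transcripts of one gene. Orange marks the lead, and a thicker line more reads; LRP6, TEAD1 and VCAN have leads of a single exon.

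Structure was compared with the other circRNAs of 10 or more reads, as a description. Single-exon rings made up 18.03% of 61 members with both ends at annotated exons and 5.13% of 10815 others. Exon 2 was the acceptor exon in 31.1% of members and 28.4% of others. The median spliced length, summed over annotated exons, was 511 bases for members and 437 for others. For the upstream flanking intron the median was 21060 bases against 7458. Circles of the same gene share exons and introns, so these are not independent values. Of the 62 members tested, 48 had both ends in coding sequence, 11 had only the donor end there and 3 had neither.

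Between day 45 and day 90, none of the 62 member circRNAs passed the test (edgeR), against 0.08% of all circRNAs. At an unadjusted p under 0.05 there were 10 of 62, against 9.61% of all circRNAs. The lowest adjusted p was 0.205. As sums per gene, VCAN was the only 1 of 28 to pass, against 0.238% of all 4616 genes lower at day 90. VCAN had 35, 11 and 67 reads at day 45 and 7, 19 and 7 at day 90, a log2 change of -1.87 ± 0.48 (SE, adjusted p = 0.0367, edgeR), while the median of all genes was -0.63. These groups overlapped, and the call was lost with TMM factors (adjusted p = 0.783) and in 8 of the 15 fits that each left out a library, among them that without day 90 replicate 1 (adjusted p = 0.380). Over 27 alternatives the adjusted p ran from 0.00561 to 0.783.

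In the sums per gene, 22 of 28 member genes were higher at day 45 than at day 0 (background 61.9%) and 18 of 28 at day 90 (background 43.4%), with none lower. Of all 37 member genes, 22 had no day 0 read. Those of them tested, such as BMPR1B, TULP1, SOX6 and EYS, passed the filter of 10 reads only through later libraries. These counts, and the sums per gene by role above, therefore do not show an excess of rising members. With TMM factors 4 of 28 were higher at day 45, BMPR1B, BMPR2, LCA5 and TULP1, against 10.8% of all genes.

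**Figure D4:**
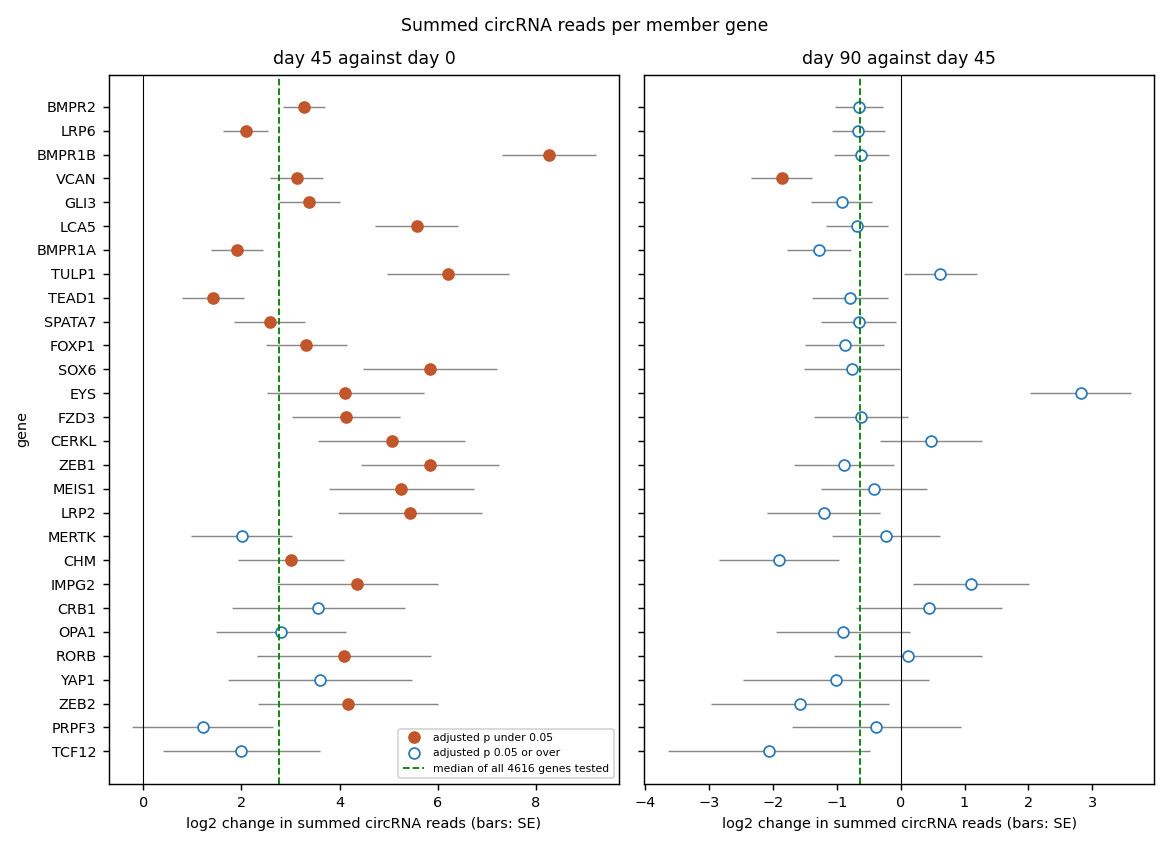
Log2 change in summed circRNA reads (x axis, bars are SE) of the 28 member genes tested (y axis), for day 45 against day 0 and day 90 against day 45; filled points have an adjusted p under 0.05 (edgeR) and the dashed line is the median of all genes tested, 2.77 and -0.63. In the first panel all 28 points are above 0, and in the second only VCAN is filled. Genes without a day 0 read have first-panel changes with no measured base.

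No member circRNA passed the test for IGF-1. At day 45 the count was 0 of 62, against 0.016% of all circRNAs, and at an unadjusted p under 0.05 it was 2 of 62, against 4.58%. At day 90 it was 0 of 62, against 0.008%, and unadjusted 7 of 62, against 4.17%. The IGF-1 effect at day 90 against that at day 45 gave 0 of 62, against 0%, and unadjusted 6 of 62, against 4.82%. With IGF-1, day 90 against day 45 gave 0 of 62, against 0.016%, and unadjusted 8 of 62, against 4.57%, with VCAN exon 8 nearest at an adjusted p of 0.0836 (edgeR). DESeq2's Wald test also called none in these comparisons. A difference that misses the threshold at these counts is not shown to be absent.

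The share of a gene's reads held by each of its circRNAs was tested for 50 circRNAs of 14 genes. None passed the test from day 0 to day 45 (edgeR's diffSpliceDGE), against 0.011% of all circRNAs tested for use, and 1 of 50 did at an unadjusted p under 0.05, against 3.17%. From day 45 to day 90 none passed, against 0%, and 3 of 50 did unadjusted, against 2.40%. These counts do not show that the division of reads was stable.

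Genes of the same kinds that were not members behaved as follows in the sums per gene. Of 81 other eye genes, 45 had reads and 24 were tested, of which 18 were higher at day 45 and none lower, BBS9 having most reads (log2 change 3.60 ± 0.44, SE). Of 37 other signalling genes, 27 had reads and 17 were tested, of which 11 were higher and none lower, with ACVR2A having most reads (4.15 ± 0.44). Both counts stand beside 61.9% of all genes higher. None of these genes passed at day 90 against day 45 or for IGF-1.

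CircRNAs of marker genes were used to check the labels, although few such genes give circRNAs. Pluripotency markers had reads for 7 of 14 genes, at 0.0703 to 0.152 RPM at day 0 and 0 to 0.0289 RPM at day 45, and POU5F1 and NANOG had none. Retinal neuron markers had reads for 4 of 14 genes, nearly all of them from RIMS2, a synaptic gene that is not confined to retina, and CRX, RCVRN and NRL were at 0. Markers of the pigment epithelium were at 0 RPM at day 0 and 0.0955 to 0.199 RPM at day 45, forebrain neuron markers at 0.0214 to 0.0351 and 0.0939 to 0.497 RPM, and mesenchyme and muscle markers at 0.00801 to 0.0357 and 0.0271 to 0.159 RPM. The part of these cells in the member results was not tested.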

How the data were processed

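Total RNA from triplicate H9 cultures was sequenced as 100 base paired-end reads. The authors called circRNAs by PTESFinder from GENCODE models (build hg19), and the deposited table gives raw counts of back-splice reads per circRNA, summed and as a list of libraries with reads (raw values, other than the sum, held as text). Nothing was normalised or pooled. Amplicon libraries of another gene were not used here.

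Library letters a, b and c were read as replicates 1, 2 and 3. Library sizes were the sequenced read numbers tabulated by the study; day 90 replicates 1 and 2 are not told apart there, and their mean was used. A misread letter would alter the RPM of a library, not its group. A 0 over a group allows 3 counts, 0.00692 to 0.0079 RPM. Ratios to this limit take the later count as observed. Intervals and this limit cover counting error only, since PCR copies of a molecule were not marked and may be counted repeatedly.

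Genes came from GENCODE 44 on GRCh37. Counts of circRNAs with at least 10 summed reads (12498), of sums per gene (4616 genes) and of use within a gene (9118 circRNAs) were fitted in R 4.3.3 with edgeR 4.0.16 in 1 model of 5 groups, without TMM factors or block, at a Benjamini-Hochberg adjusted p of 0.05. The common dispersion was 0.179 for circRNAs. SEs come from the log2 change and F. P-values measure the spread between triplicate cultures. Alternatives were TMM, DESeq2 1.42.0 size factors and Wald test, no filter, 50 counts, other day 90 read numbers, a replicate block, Q30 groups (cut at 88 and 91.5%), the compared groups alone, exon-end assignment and each replicate left out. The steps were tested on simulated data for day 90 against day 45 only, with changes set in circRNAs and genes of 50 or more reads. The simulation did not cover day 45 against day 0 for circRNAs without a day 0 read.

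For same-numbered libraries, correlations of deviations from group means (log2 of RPM + 0.1) ran from -0.15 to 0.18. In none of 10 pairs of groups were all above 0.1. Between untreated and IGF-1 day 45 they were 0.092 to 0.176, above the -0.159 to 0.090 of differently numbered libraries. Between day 45 and day 90 they were below, at -0.151 to -0.104 against 0.017 to 0.108 untreated and -0.144 to -0.039 against -0.036 to 0.082 with IGF-1. These values do not settle whether same-numbered cultures are paired. Members, gene lists and roles were chosen with earlier results of these data known. Every member gene is named, and values per library are given for the leads of the 15 genes with most reads, lists by counts. VCAN and EYS sums, the YAP1, MEIS1, RORB, TULP1, BMPR1A, TEAD1 and ZEB2 sums and the second BMPR1B circRNA were picked out after their values were seen.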

Additional observations from a re-analysis of the deposited data

Results flagged for a closer look

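Some member genes also had circRNAs whose named transcript was absent from the annotation used but whose 2 ends both matched exon ends of the gene. These 68 circRNAs of 14 genes, with 455 reads, were outside the set and are noted because their reads exceed the 3 that a count of 0 allows. LRP2 had 172 such reads, CHM 137, RPGR 36, EYS 29, ZEB1 21, TEAD1 19, PROX1 11, SOX6 9, PRPF3 6, MERTK 5 and ABCA4 4. For LRP2, a receptor of the epithelial surface, these reads exceeded the 53 of the set, and for CHM the 42 of the set. RPGR and PROX1 had no circRNA in the set. Over the whole series, 48401 of 55371 circRNAs had their named transcript in the annotation used, so rankings and leads depend on it. The EYS reads were 0 at day 0 and at both day 45 groups, 21 at day 90 and 8 at day 90 with IGF-1.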

How the results depend on the processing

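The day 45 count of 26 of 62 member circRNAs was 7 of 62 with TMM factors, 9 of 62 with DESeq2 size factors, 15 of 251 without a filter and 17 of 19 at 50 counts. The day 90 count of 15 was 8 with either scaling. For genes, 22 became 4 and 18 became 5 with TMM factors and with DESeq2 size factors. All members called in these comparisons were higher at the later day. Day 90 against day 45 called 0 to 1 circRNA with a replicate left out, VCAN exon 8 without day 45 replicate 2. With IGF-1 the same circRNA made the count 1 with TMM factors, with DESeq2 size factors and with day 90 read numbers in listed order, and 0 to 1 with a replicate left out. The single gene lower at day 90, VCAN, became 0 with TMM factors, DESeq2 size factors, reversed day 90 read numbers, no filter, 50 counts, the replicate block, Q30 groups in listed order, the Wald test and the compared groups alone, and 0 to 1 with a replicate left out (0 without day 0 replicate 2, day 45 replicates 1 or 3, day 45 IGF-1 replicates 1 or 3, day 90 replicates 1 or 3, or day 90 IGF-1 replicate 3). Exon-end assignment made it 2, adding EYS as higher (log2 change 3.34, adjusted p = 0.00742, edgeR). The lead of BMPR1A reversed to -0.45 with TMM factors and -0.18 with DESeq2 size factors, and that of TEAD1 to -0.37 and -0.09. The labels of same-numbered libraries share only a number. With the replicate block the day 45 counts were 22 circRNAs and 21 genes. Apart from VCAN, the block moved no count by more than 1.5 times. The causes of these changes were not tested. With TMM factors and DESeq2 size factors the median log2 change of all circRNAs from day 0 to day 45 was 1.60 and 1.84, against 2.87. At day 0, 212 of 251 members had no read. The 39 members with a day 0 read stand beside 12431 of all 55371 circRNAs, so absence at day 0 was common in the whole series.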
